A study of Mus musculus with 8 samples.

Results

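The 5 genes described here are the vesicular glutamate transporters Slc17a6 (VGLUT2), Slc17a7 (VGLUT1) and Slc17a8 (VGLUT3), and 2 markers of C-fibre touch neurons, Th and Fam19a4 (also called Tafa4). They were taken by symbol, with no threshold on their values, from the 22609 genes counted, and were chosen with earlier results of these data known. All 5 were found, and all 5 passed the expression filter. The study searched for sex differences in dorsal root ganglion (DRG) neurons, the sensory neurons whose cell bodies sit in clusters beside the spinal cord. Adult wild-type C57BL/6J mice, females all in the estrous phase and males, received the fluorescent lectin WGA-488 in the hindpaws and thigh muscles. Labelled cells of the lumbar ganglia were isolated by flow sorting and made into SMART-seq2 libraries, 4 from female and 4 from male mice. The animals were naive, with no injury or drug, so both groups shared the tracer injection, the dissociation and the sort, and they differed by sex. Neurons of skin and muscle were mixed in each library, which limits what the libraries say about either target.

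Vesicular glutamate transporters load glutamate into synaptic vesicles, using the proton gradient set by the vesicular proton pump, and DRG neurons of all main classes use glutamate to excite the spinal cord. VGLUT2 is the form known from most DRG neurons, nociceptors included. VGLUT1 is known from large myelinated touch neurons and proprioceptors, and VGLUT3 from unmyelinated touch neurons. These C-fibre low-threshold mechanoreceptors innervate hairy skin and respond to gentle stroking. In the mouse they are recognised by tyrosine hydroxylase, the product of Th and the first enzyme of catecholamine synthesis, and by the secreted protein TAFA4, the product of Fam19a4.

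The regions upstream of Th, Fam19a4 and Slc17a8 are shown because the levels of these genes moved together across libraries, as described below. Each is the 250 bases before a RefSeq start site (build GRCm38.p6, minus strand for all 3): chr7:142899996-142900245 for Th, chr6:97060412-97060661 for Fam19a4, and chr10:89621250-89621499 for the first listed of the 2 Slc17a8 starts. Capitals mark the matches to the motifs searched.
Th: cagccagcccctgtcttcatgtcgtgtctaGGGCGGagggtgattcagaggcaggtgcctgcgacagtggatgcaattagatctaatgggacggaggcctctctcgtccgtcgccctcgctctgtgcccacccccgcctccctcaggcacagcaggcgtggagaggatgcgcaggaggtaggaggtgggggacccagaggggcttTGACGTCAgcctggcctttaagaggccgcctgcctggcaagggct
Fam19a4: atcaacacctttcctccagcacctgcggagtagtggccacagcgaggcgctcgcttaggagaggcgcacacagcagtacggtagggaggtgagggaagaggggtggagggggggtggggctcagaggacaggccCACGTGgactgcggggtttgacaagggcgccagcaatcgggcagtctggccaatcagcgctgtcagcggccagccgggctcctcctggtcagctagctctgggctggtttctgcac
Slc17a8: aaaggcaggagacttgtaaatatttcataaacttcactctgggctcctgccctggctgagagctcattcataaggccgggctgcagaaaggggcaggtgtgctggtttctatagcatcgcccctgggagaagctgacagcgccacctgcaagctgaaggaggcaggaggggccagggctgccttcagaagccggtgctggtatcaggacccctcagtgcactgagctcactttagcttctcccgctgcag
The motifs were searched on both strands. They were the cAMP response element TGACGTCA (1.55% of 32851 promoter windows of the same length), the E-box CACGTG (6.02%), the GC box GGGCGG (32.7%), the Runx motif TGTGGT (14.0%), the TATA motif TATAAA (12.4%) and the POU homeodomain motif ATTAAT (4.39%). The cAMP response element was found in the Th window, 45 bases before the start, and in no other member's window. The E-box was found in the Fam19a4 window, 116 bases before the start, and in no other member's window. None of the 6 motifs was found in this Slc17a8 window, and none was shared by the windows of the 3 genes. GC content was 64.4% for Th, 65.2% for Fam19a4 and 57.2% for Slc17a8, against a median of 52.4% over all windows.

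The transporters are close relatives, and the stretches around the longest identical run between any 2 of them are shown, since reads of one could be counted for another where sequences are shared. Both stretches lie in coding exon 2 (build mm9, chr7:58880771-58880830 on the plus strand and chr10:89069395-89069454 on the minus strand), and capitals mark the shared run of 25 bases.
Slc17a6: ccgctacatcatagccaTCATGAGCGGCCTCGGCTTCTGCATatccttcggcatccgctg
Slc17a8: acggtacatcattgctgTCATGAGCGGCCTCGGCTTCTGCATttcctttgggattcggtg
These stretches were identical at 50 of 60 bases. The longest run shared by Slc17a6 and Slc17a7 had 21 bases, and that of Slc17a7 and Slc17a8 had 17. No stretch as long as the 50-base reads was shared between any of the coding sequences.

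All 5 genes are protein coding. On build mm9, Slc17a6 lies on the plus strand at chr7:58877200-58926495 and Slc17a7 on the plus strand at chr7:52419291-52431508. Slc17a8 lies on the minus strand at chr10:89036765-89083998, Th on the minus strand at chr7:150078657-150117033, and Fam19a4 on the minus strand at chr6:96781203-97010405. None of the 5 shared exonic bases with another annotated gene on either strand.

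The libraries held 4.8 to 7.3 M gene reads (M, 1e6 reads), and 3 reads corresponded to 0.409 to 0.625 counts per 1e6 gene reads (CPM). These floors cover counting error only, because PCR copies were not marked. Female 4 stood apart from the other libraries: chi-square values of same-sex library pairs, divided by their degrees of freedom, were 32.3 to 48.0 for female pairs with it and 7.61 to 11.7 for those without it. Male 1 stood apart to a lesser degree, with 7.60 to 12.8 for male pairs with it and 2.90 to 3.91 for those without it, and it was the lowest of the 8 libraries for Slc17a7 and the highest for Slc17a8, Th and Fam19a4. Genes of short summed exon length were high and genes of long summed exon length low in female 4. The median log2 ratio to the other females was 0.35 at 54 to 2141 bases and -0.64 at 6410 to 31152 bases. These were the shortest and the longest of 5 equal classes. The summed level of glial markers was also higher in the female libraries, at 11939 to 15478 CPM in females and 5528 to 11471 CPM in males. The summed fibroblast markers reached 76.2 to 123.5 CPM in females and 40.1 to 69.0 CPM in males. Whether these differences contribute to the values of the 5 genes was not tested.

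Of the 5 genes, Slc17a6 and Th were the most abundant per unit of exon length, Fam19a4 followed, and Slc17a7 and Slc17a8 were low. Levels between genes are compared as reads per kilobase of exon per 1e6 gene reads (RPKM). Slc17a6 averaged 80.4 ± 16.99 RPKM (SD, n = 8), Th 74.3 ± 23.4 RPKM and Fam19a4 32.5 ± 7.21 RPKM. Only 6.89%, 7.50% and 16.4% of 12374 tested genes were at least as high. Slc17a7 averaged 4.70 ± 1.80 RPKM, below the median tested gene at 6.63 RPKM, and Slc17a8 averaged 0.784 ± 0.377 RPKM, with 92.2% of tested genes at least as high.

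The order of Slc17a6 and Th was not fixed, since Slc17a6 was the higher of the 2 in 5 of 8 libraries, at 0.402 to 2.52 times Th in RPKM (0.896 to 2.52 times without female 4). The annotated Th exons include a block of 535 bases that lies 30579 bases upstream of the rest. Without this block Th averaged 96.1 ± 30.3 RPKM (SD, n = 8), above the mean of Slc17a6. Th exceeded Fam19a4 in 8 of 8 libraries, by 1.66 to 2.62 times, although the ranges of the 2 genes overlapped between libraries. Fam19a4 exceeded Slc17a7 in 8 of 8 libraries with no overlap of the ranges. Slc17a7 also exceeded Slc17a8 in 8 of 8 libraries, but by as little as 1.24 times in male 1, and its lowest value (1.58 RPKM) was close to the highest of Slc17a8 (1.27 RPKM).

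**Figure D1:**
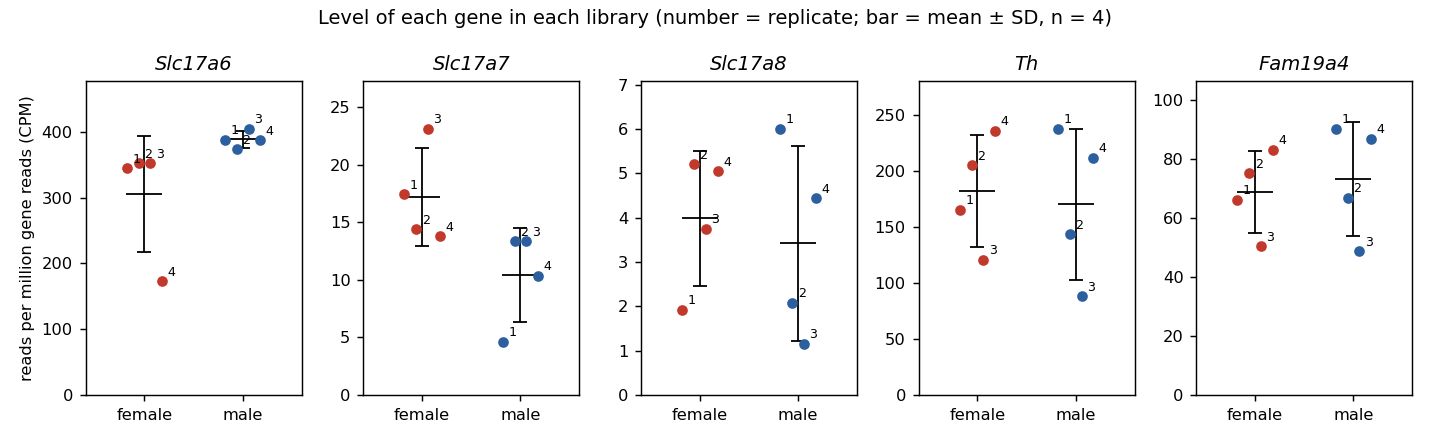
Level of each of the 5 genes in every library, in reads per 1e6 gene reads (CPM), with the replicate number beside each point and the mean ± SD of 4 libraries as bars. Female 4 sits at 173.2 CPM for Slc17a6, below the other 7 libraries, and replicates 3 are the lowest of their sex for both Th and Fam19a4.

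Slc17a6, the most abundant of the 3 transporters in every library, was counted at 345.3, 352.3, 352.7 and 173.2 CPM in females 1 to 4, and at 388.6, 373.9, 404.7 and 387.4 CPM in males 1 to 4. The sexes did not overlap: 3 females lay close together just under the lowest male, and female 4 lay far below. The mean was 305.9 ± 88.5 CPM in females and 388.6 ± 12.6 CPM in males (SD, n = 4 each). The log2 fold change, female over male, was -0.36 ± 0.20 (SE), with a 95% interval of -0.81 to 0.09 and an edgeR adjusted p of 0.740. Without female 4 it was -0.17 ± 0.06 (SE), with an unadjusted p of 0.0191 and an adjusted p of 0.358 in the same edgeR test. Female 4 held Slc17a6 at a log2 ratio of -1.01 to the other females, a value that 11.3% of tested genes of like exon length reached or passed downwards.

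Slc17a7 was higher in females before adjustment for all genes, but not after it. Its level was 17.5, 14.4, 23.1 and 13.8 CPM in females 1 to 4, from 127, 83, 111 and 82 reads. In males 1 to 4 it was 4.64, 13.4, 13.4 and 10.4 CPM, from 34, 90, 81 and 70 reads. All females were above all males, but the lowest female and the highest male were close, and male 1 was far below the rest. The mean was 17.2 ± 4.26 CPM in females and 10.4 ± 4.12 CPM in males (SD, n = 4 each). The log2 fold change was 0.71 ± 0.31 (SE), with a 95% interval of 0.03 to 1.38, an unadjusted p of 0.0430 and an edgeR adjusted p of 0.696. The unadjusted p was above 0.05 when female 1, female 3, male 1 or male 4 was left out, at log2 fold changes of 0.46 to 0.71.

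Slc17a8, the transporter known from unmyelinated touch neurons, was counted with only 7 to 44 reads per library, so its sex difference could be measured only coarsely. Its level was 1.92, 5.21, 3.75 and 5.05 CPM in females 1 to 4, and 6.003, 2.08, 1.16 and 4.44 CPM in males 1 to 4. All values were above the 3-read floor, and the sexes overlapped over nearly the whole range. The log2 fold change was 0.17 ± 0.48 (SE), with a 95% interval of -0.89 to 1.23 and an edgeR adjusted p of 0.942.

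Th and Fam19a4 varied within each sex and overlapped between the sexes. Th was counted at 165.2, 204.9, 120.4 and 235.5 CPM in females 1 to 4, and at 237.3, 143.3, 87.8 and 211.5 CPM in males 1 to 4. Its log2 fold change was 0.07 ± 0.29 (SE), with a 95% interval of -0.57 to 0.72 and an edgeR adjusted p of 0.959. Fam19a4 was counted at 66.1, 75.0, 50.4 and 83.0 CPM in females 1 to 4, and at 90.0, 66.7, 48.7 and 86.7 CPM in males 1 to 4. Its log2 fold change was -0.11 ± 0.21 (SE), with a 95% interval of -0.57 to 0.35 and an edgeR adjusted p of 0.906. The interval of either gene spans fitted differences on both sides of 0. For Slc17a8, Th and Fam19a4, the differences between libraries of one sex were thus larger than the difference between the sexes.

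Counted over the 5 genes, 0 passed an adjusted p of 0.05 in the edgeR test with Benjamini-Hochberg adjustment, where 0.0879% of the 12518 tested genes did. DESeq2 and limma-voom also called 0 of the 5. At an unadjusted p of 0.05, 1 of the 5 passed (Slc17a7), where 7.11% of tested genes did, 4.44% higher in females and 2.67% higher in males. Female and male values were fully apart for 2 of these genes (Slc17a6 and Slc17a7), and this held for 5.64% of tested genes. The highest library exceeded the lowest 4.99 times for Slc17a7 (2.23 times without male 1), 5.19 times for Slc17a8 (3.12 times without male 3), 2.70 times for Th, 2.34 times for Slc17a6 (1.17 times without female 4) and 1.85 times for Fam19a4, where the median tested gene had 1.83 times. In bulk libraries, fewer cells of a type and less RNA per cell cannot be told apart.

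**Figure D2:**
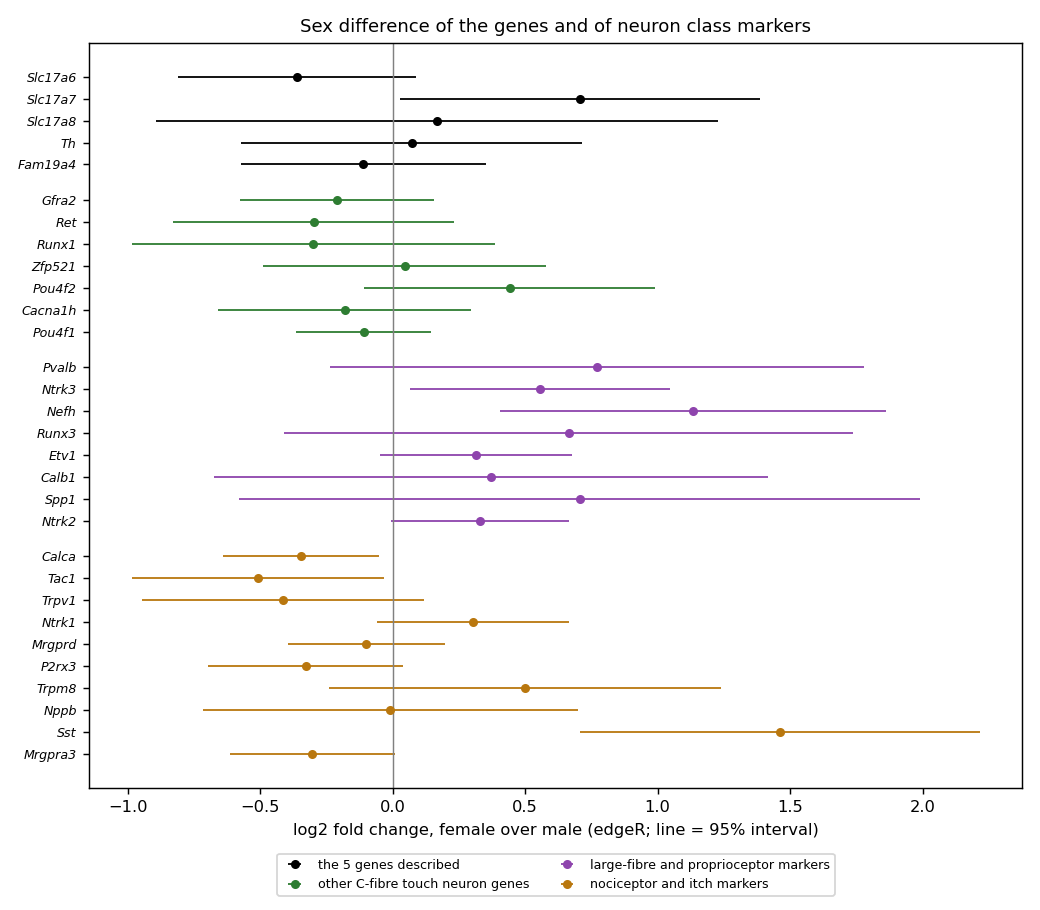
Log2 fold change of female over male for the 5 genes and for 3 lists of neuron class markers, with 95% intervals from the edgeR fit as lines. The interval of Slc17a7 starts at 0.03, those of the other 4 genes include 0, and all 8 large-fibre markers lie on the female side.

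The make-up of the transporter pool was compared next, as the share of each gene in the summed RPKM of the 3 transporters. Slc17a6 made up most of the pool in every library, at 92.6%, 93.1%, 90.4% and 87.4% in females 1 to 4 and 96.9%, 94.6%, 95.1% and 95.3% in males 1 to 4. Its share averaged 90.9% ± 2.61 in females and 95.5% ± 1.02 in males (SD, n = 4 each), a female minus male difference of -4.56 percentage points. The sexes did not overlap (exact permutation test, two-sided, p = 0.0286, adjusted p = 0.0429 over the 3 shares). This p is the smallest that 4 against 4 libraries can give. It is not independent of the levels above: every female was lower than every male in Slc17a6 and higher in Slc17a7, and Slc17a8 was at most 2.33% of the pool.

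The Slc17a7 share moved the opposite way, and since the shares sum to 100% the comparisons are not independent. It was 6.88%, 5.60%, 8.71% and 10.2% in females 1 to 4, and 1.70%, 4.97%, 4.62% and 3.74% in males 1 to 4. The means were 7.86% ± 2.04 in females and 3.76% ± 1.47 in males (SD, n = 4 each), a difference of 4.10 percentage points (exact permutation test, two-sided, p = 0.0286, adjusted p = 0.0429). The Slc17a8 share was 1.24% ± 0.799 in females and 0.775% ± 0.506 in males, and this difference did not exceed the spread between libraries (exact permutation test, two-sided, n = 4 each, p = 0.457). Without female 4 the Slc17a6 and Slc17a7 differences were -3.40 and 3.31 percentage points, with the same adjusted p. Without any 1 of the 4 males the exact permutation p of both was 0.0571 and the adjusted p 0.0857. The differences were then -4.87 to -4.08 for Slc17a6 and 3.42 to 4.51 percentage points for Slc17a7. With 1 library left out fewer labelings exist, so p moves in coarse steps and its change says little.

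**Figure D3:**
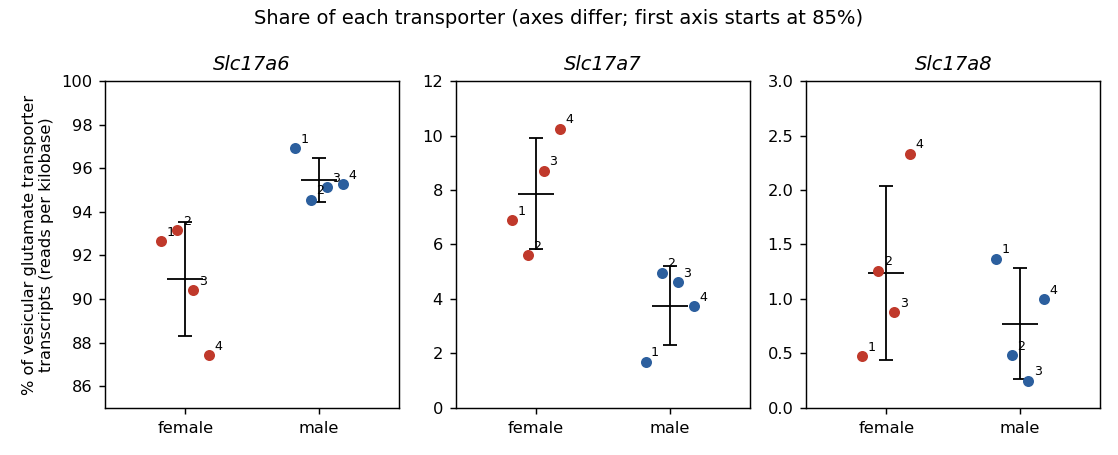
Share of Slc17a6, Slc17a7 and Slc17a8 in the summed RPKM of the 3 transporters, in percent, for each library (number, replicate) with the mean ± SD of 4 libraries. The axes differ and the first starts at 85%, and the Slc17a7 shares of 5.60% to 10.2% in females lie above those of 1.70% to 4.97% in males.

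Th and Fam19a4 moved together from library to library. Female 3 and male 3 were the lowest of their sex for both genes, and female 4 and male 1 the highest. Within each sex the 4 libraries stood in the same order for both genes. The ratio of Th to Fam19a4 reads was 2.44 ± 0.333 (SD, n = 8), with a coefficient of variation of 13.7%, while that of Slc17a6 to Th reads was 2.27 ± 1.15 with a coefficient of variation of 50.8% (42.2% without female 4).

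Across the 8 libraries, log2(CPM + 1) with TMM scaling of Th and Fam19a4 had a Pearson r of 0.956 (exact permutation p = 0.000248, adjusted p = 0.000992 over the 4 gene pairs computed) and a Spearman rho of 0.952 (exact permutation p = 0.00114, adjusted p = 0.00456). With female 3 and male 3, the libraries farthest from the median of Th, left out, r was 0.904. With the mean of each sex subtracted, r was 0.996.

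Slc17a8 followed the same pattern more loosely. In males its order was that of Th and Fam19a4, and in females it was not, with female 1 the lowest and female 2 the highest. Its r with Th was 0.833 (exact permutation p = 0.0107, adjusted p = 0.0214) and rho was 0.833 (exact permutation p = 0.0154, adjusted p = 0.0205), and r was 0.943 without female 3 and male 3. Its r with Fam19a4 was 0.731 (exact permutation p = 0.0463, adjusted p = 0.0618) and rho was 0.833 (exact permutation p = 0.0154, adjusted p = 0.0205), and r was 0.885 without those 2 libraries. The adjusted p of r with Th was between 0.0536 and 0.197 when female 2, female 4 or any 1 male was left out, with r between 0.685 and 0.834. For Slc17a6 and Slc17a7, r was -0.18 (exact permutation p = 0.463) and rho was -0.643 (exact permutation p = 0.0962), and r was -0.814 without female 4 and male 3.

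**Figure D4:**
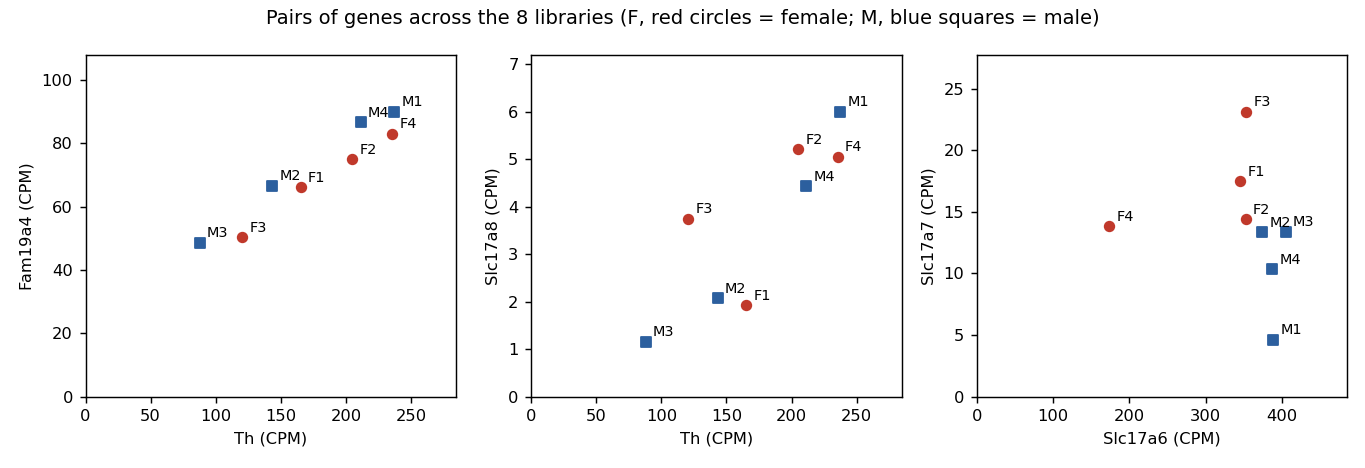
Levels of 3 pairs of genes in the 8 libraries, in CPM, with F for female and M for male and the replicate number. Fam19a4 follows Th from 48.7 CPM in M3 to 90.0 CPM in M1, Slc17a8 follows Th with more scatter, and female 4 lies apart for Slc17a6.

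Among the 9073 tested genes with a mean of at least 10 CPM, Fam19a4 was the gene whose pattern over the 8 libraries was most like that of Th (r = 0.956), followed by Mppe1 (0.949) and Ppid (0.941). Without female 4 the r with Th was 0.966 for Mppe1, above the 0.955 of Fam19a4, and 0.934 for Ppid. For Fam19a4 the most alike genes were Mppe1 (0.965), Th (0.956) and Ubxn8 (0.919). For Slc17a8 they were Fbxl8 (0.931), Rps4x (0.924) and Ift27 (0.922), with Th at rank 26 and Fam19a4 at rank 96. Rps4x has near-identical copies in the genome, so its counts are uncertain. For Slc17a6 they were Rhbdd1, Ppp3r1 and Msn (r = 0.995 each), and for Slc17a7 Kank4 (0.973), Wnt6 (0.972) and Gnpat (0.970). The 8 libraries share one preparation, and without female 4 the r of Slc17a6 was 0.933 with Rhbdd1, 0.928 with Ppp3r1 and 0.888 with Msn.

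Over the 8 libraries, the other genes of C-fibre touch neurons had lower r with Th than Fam19a4 had. Of the 8 genes of this list, 7 were measured and tested (Piezo2 was not analysed here), 0 passed at an unadjusted p of 0.05 between the sexes, and the median log2 fold change was -0.18, against 0.00 over all tested genes. Ret, the receptor kinase of GDNF family ligands (121.5 RPKM), and Pou4f1, a transcription factor of sensory neurons (83.0 RPKM), were the most abundant. The r of the 7 genes with Th ranged from -0.229 to 0.587 with a median of 0.0142, where the median over all candidate genes was -0.0429 and the 90th percentile 0.517. Female 4 had the lowest sum of the 7 genes, 885.0 CPM against 1402.5 to 1811.3 CPM in the others, and the second highest Th, and without it the median r was 0.545. With male 3 and female 3 left out it was -0.306.

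Slc17a7 was set beside markers of large myelinated neurons, the cells it is known from. All 8 of these markers were tested, 2 passed at an unadjusted p of 0.05, both higher in females, and 0 passed after edgeR adjustment. Their median log2 fold change was 0.61. Nefh, the heavy neurofilament, was at 1108.4 ± 464.9 CPM in females and 500.2 ± 156.6 CPM in males (SD, n = 4 each), a log2 fold change of 1.13 ± 0.33 (SE, edgeR adjusted p = 0.600). Ntrk3, the neurotrophin-3 receptor of proprioceptors, had a log2 fold change of 0.56 ± 0.22 (SE, edgeR adjusted p = 0.660). Pvalb, the calcium-binding protein of proprioceptors, was at 60.5 RPKM and overlapped between the sexes. Its log2 fold change was 0.77 ± 0.46 (SE, 95% interval -0.24 to 1.78, edgeR adjusted p = 0.756).

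The sum of the 8 markers was lowest in male 1 at 500.7 CPM and highest in female 3 at 2301.2 CPM. Slc17a7 was also lowest and highest in these libraries. Nefh alone held 1662.9 CPM of the female 3 sum. Pvalb, Nefh, Runx3 and Ntrk2 were each highest in female 3. Ntrk3, Etv1, Calb1 and Spp1 were each highest in female 4, the female with the lowest Slc17a7 (13.8 CPM). Male 1 was also the lowest of the 8 libraries in summed glial (5528 CPM), fibroblast (40.1 CPM) and macrophage and endothelial markers (1.91 CPM), and the highest in nociceptor and itch markers (8823 CPM). The r of the 8 large-fibre markers with Slc17a7 ranged from 0.578 to 0.955 with a median of 0.828, where the median over all candidate genes was -0.0454 and the 90th percentile 0.588. Without male 1 the median r was 0.552, and without male 1 and female 3 it was 0.314. Calca, which encodes the peptide CGRP of peptidergic nociceptors, had an r of -0.948 with Slc17a7, and Tac1, which encodes substance P, an r of -0.958. Of the 10 nociceptor and itch markers, 1 (Sst) was higher in females and 2 (Calca and Tac1) were higher in males at an unadjusted p of 0.05, and 0 passed after edgeR adjustment. The part of these cell types in the Slc17a7 values was not tested.

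Of the 14 genes that make and carry catecholamines, 9 passed the expression filter in these libraries, where Th was abundant. Ddc, the enzyme that acts after tyrosine hydroxylase, was at 3 to 14 reads per library (0.444 to 2.15 CPM), and Dbh, which makes noradrenaline, at 0 to 2 reads (both were named after their values were seen). The transporters for dopamine and noradrenaline, Slc6a3 and Slc6a2, were at 0 reads in all 8 libraries, which allows at most 0.409 to 0.625 CPM in each. Slc18a2, the vesicular monoamine transporter, was at 40 to 68 reads and 2.32 RPKM. The genes of tetrahydrobiopterin, the cofactor of tyrosine hydroxylase, were detected: Qdpr and Spr were at 165.8 and 78.3 RPKM, and Gch1, the first enzyme of its synthesis, at 4.16 RPKM. Of the 9 tested genes of this list, 1 passed at an unadjusted p of 0.05. This was Gch1, at 9.35 ± 1.29 CPM in females and 13.7 ± 3.96 CPM in males (SD, n = 4 each), with a log2 fold change of -0.57 ± 0.23 (SE, edgeR adjusted p = 0.657).

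Sympathetic neurons, another cell type rich in Th, were checked by their markers. Slc6a2 and Hand2 were at 0 reads in all libraries, and Phox2a and Gata2 at 0 or 1 read. The sum of the 8 markers was 7.08 to 14.6 CPM in females and 8.91 to 19.97 CPM in males, mostly from Slc18a2 and Npy, the latter at 0 to 73 reads. The part of sympathetic neurons in the Th values was not tested beyond these levels.

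Relatives and partners of the 5 genes were examined as lists of other SLC17 genes, other vesicular transporters, FAM19A genes, glutamate supply and the proton pump, and no gene of these 5 lists passed at an unadjusted p of 0.05 between the sexes. Of the 6 other SLC17 genes, Slc17a1 to Slc17a4 were at 0 reads in all libraries, the vesicular nucleotide transporter Slc17a9 was at 0 to 2 reads, and Slc17a5, the lysosomal sialic acid transporter, was at 11.96 ± 1.50 RPKM (SD, n = 8), above Slc17a7 and Slc17a8. Among other vesicle transporters, the GABA and acetylcholine carriers Slc32a1 and Slc18a3 were at 0 reads, and the vesicle proteins Sv2c and Sv2b were at 50.6 and 42.4 RPKM. All 4 relatives of Fam19a4 were tested, led by Fam19a2 (13.9 RPKM) and Fam19a5 (8.66 RPKM), both below the 32.5 RPKM of Fam19a4.

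The supply of glutamate was represented by 14 genes, of which 13 were tested, with a median log2 fold change of -0.07. Got1 and Got2, which interconvert aspartate and glutamate, were the most abundant at 106.2 and 65.5 RPKM. The vesicular proton pump was represented by 17 subunit genes, of which 16 were tested, 8 with higher and 8 with lower fitted levels in females, and the median log2 fold change was 0.01. Atp6v1e1 and Atp6v0e2 were the most abundant, at 410.9 and 402.7 RPKM. The labelled tissue was checked by pan-neuronal markers, all 10 of which were tested, led by Tubb3 and Uchl1 at 2635.8 and 2330.4 RPKM. Markers of glia were present as well, with Apoe at 3726.8 and Fabp7 at 484.0 RPKM, and 5 of these 10 markers, among them Sox10, Mbp, Apoe and Sparc, were higher in females at an unadjusted p of 0.05. Dcn, Lum and Col1a2, 3 of the 4 fibroblast markers tested, and Cd74, 1 of the 2 macrophage and endothelial markers tested, were also higher in females at that threshold, and 0 of these markers passed after edgeR adjustment. Of the 6 markers of the injected tissues, skin and muscle, 1 passed the expression filter and Krt5 was at 0 reads in all libraries. Their sum thus rests on few reads. It was 4.81 to 6.57 CPM in females and 2.48 to 3.42 CPM in males, with no overlap of the sexes. Of single tested genes, 5.64% had no overlap.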

How the data were processed

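The authors sequenced single reads from sorted back-labelled neurons of 4 female and 4 male mice, which were grouped by their labels. The authors aligned reads to mm9 with TopHat2 at default settings and used HTSeq-count for each gene. Raw read counts, not normalized, were deposited. Tool versions, annotation release and strand option are not given in the sources used here. Replicates are separate mice.

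The 5 summary rows of each library were dropped. CPM is reads over all gene reads, and RPKM divides it by the union exon length of GENCODE M1 on NCBIM37 (mm9), which matched 21627 of 22609 symbols (95.7%). Sex was the only term of the quasi-likelihood fit to the counts (edgeR 4.0.16, R 4.3.3), with TMM scaling, the default expression filter and Benjamini-Hochberg adjustment over 12518 genes. Shares were compared with exact permutation tests over 70 labelings and correlations over all pairings, on log2(CPM + 1), each adjusted within its family. Lists were described by counts, without set tests.

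The members and lists were chosen with earlier results of these data known. Genes named were the 5 members, list genes with an unadjusted p under 0.05, the 2 list genes of highest mean RPKM, catecholamine and sympathetic genes at 0 reads, and the 3 genes most alike each member by Pearson r (mean of at least 10 CPM). Values of 2 marker genes are not reported here.

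Sequences came from RefSeq (GRCm38.p6) and the mm9 genome. The fit was tested on simulated data. Other settings tried were limma-voom (limma 3.58.1), DESeq2 1.42.0, other scalings and filters, a pseudocount of 0.1, the replicate number as a block, shares without length scaling, sex means removed and each library left out. Leaving libraries out of the list correlations, each library out of the spans, and female 4 out of the ratios and most alike genes, was added after seeing the data. Figures were drawn with matplotlib 3.10.9 and tables read with pandas 2.3.3 in Python 3.11.15. Other tissues of the study were not analysed here.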

Additional observations from a re-analysis of the deposited data

Results flagged for a closer look

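Slc17a6 in female 4, at 173.2 CPM, lay far from the other 3 females, which were at 345.3 to 352.7 CPM: the gap to the nearest of them was 0.959 of the range of the group, above Dixon's critical value of 0.829 for 4 libraries. Over the 18 groups examined in this way, 1 such library was found and 0.9 would be expected by chance. In the same library Slc17a7 was at a log2 ratio of -0.40 to the other females, and Slc17a8, Th and Fam19a4 were at 0.43, 0.52 and 0.38. The part of exon length in these values was not tested beyond the comparison with genes of like length.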

How the results depend on the processing

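None of the 5 genes passed an adjusted p of 0.05 in any of the 16 alternative fits, in which adjusted p ranged from 0.358 to 0.971 for Slc17a6, 0.385 to 0.971 for Slc17a7, 0.755 to 1.00 for Slc17a8, 0.874 to 1.00 for Th and 0.721 to 0.997 for Fam19a4. With each library left out in turn, the log2 fold change was -0.44 to -0.17 for Slc17a6, 0.46 to 0.85 for Slc17a7, -0.11 to 0.60 for Slc17a8, -0.14 to 0.29 for Th and -0.26 to 0.02 for Fam19a4. The direction turned without male 2 (-0.01) and male 3 (-0.11) for Slc17a8, without female 4 (-0.08) and male 3 (-0.14) for Th, and without female 3 (0.01) and male 1 (0.016) for Fam19a4, and the cause was not tested. The unadjusted p of Slc17a7 exceeded 0.05 without female 1, female 3, male 1 or male 4, and with scaling to pan-neuronal genes (0.0687). Over all genes, edgeR called 11, DESeq2 48, the fit with the replicate block 6, and the fits without female 1 and without male 4 called 80 and 7. At an unadjusted p of 0.05, 556 genes were higher in females and 334 in males, with pan-neuronal scaling 647 and 224, and without female 4 699 and 742. Same-numbered libraries came from different mice. Their deviations from the sex means over all tested genes had r of 0.103, -0.117, 0.151 and 0.0107 for numbers 1 to 4. Whether libraries of one number shared a handling step was not tested. With the replicate block the log2 fold change was -0.42 for Slc17a6, 0.76 for Slc17a7, 0.26 for Slc17a8, 0.13 for Th and -0.09 for Fam19a4. The SE with the block was 0.19 for Th (0.29 without it) and 0.15 for Fam19a4 (0.21). It was 0.19 for Slc17a6 (0.20), 0.29 for Slc17a7 (0.31) and 0.53 for Slc17a8 (0.48). Leaving out libraries gave share differences of -5.31 to -3.40 percentage points for Slc17a6, 3.31 to 4.86 for Slc17a7 and 0.0959 to 0.717 for Slc17a8, and without length scaling the Slc17a7 difference was 2.90. Pearson r was then 0.947 to 0.966 for Th with Fam19a4, 0.685 to 0.933 for Th with Slc17a8, 0.562 to 0.925 for Fam19a4 with Slc17a8 (0.925 without female 3, adjusted exact permutation p = 0.00476) and -0.61 to 0.0171 for Slc17a6 with Slc17a7, which turned without male 1 (0.0171). With sex means removed, r was 0.789 for Fam19a4 with Slc17a8 (adjusted exact permutation p = 0.0314) and turned to 0.262 for Slc17a6 with Slc17a7. Depth limited Slc17a8 most, at 7 to 44 reads per library.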
